A study of Mus musculus with 36 samples.

Results

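Vomeronasal type 2 receptors (V2Rs, genes named Vmn2r plus a number) were examined in CD4 T cells of mice labelled TRIM28KO and of littermates. The members were all genes whose symbol is Vmn2r followed by a number and that had an array probe set annotated to that symbol alone. They came to 109 of the 22180 genes measured in this way, one probe set per gene (that with the highest mean). No filter on the signal was set, because a filter on low values would have removed most receptors and could keep a receptor only through the samples where it is high. The question was whether Vmn2r96, known from these data to be high in the TRIM28KO samples, was alone among the members in being higher.

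V2Rs are class C G protein-coupled receptors with a large extracellular domain. They are best known from sensory neurons of the basal layer of the vomeronasal organ, where they detect peptide and protein pheromones and signal through the G protein subunit encoded by Gnao1 and the channel encoded by Trpc2. The genes lie in clusters on several chromosomes, many as close copies of each other, and have no known role in T cells. TRIM28 (KAP1) is a corepressor that binds KRAB zinc-finger proteins and brings silencing factors, among them SETDB1 and heterochromatin protein 1, to the sites they recognise.

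Naive CD4 T cells were sorted from wild-type (WT) littermates and from animals labelled TRIM28KO (KO below). RNA was taken from the naive cells, or after 72 h of stimulation with plate-bound anti-CD3 and soluble anti-CD28 under Th0, Th1, Th2, Th17 or Treg culture conditions. Each of the 12 groups, 2 genotypes by 6 conditions, held 3 samples, 36 in all, hybridised to Affymetrix arrays. The labels used here name neither the promoter behind the deletion, nor the animals' age, strain or sex, nor whether the samples within a group were drawn from different mice. The p-values below therefore measure the spread between these samples. It may be technical in the stimulated groups, while samples within both naive groups also differed in Xist, as given below.

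Values are log2 intensities from the robust multi-array average (RMA), which gives no call of presence, so whether a member with a low value was transcribed is not known. The median of the whole table was 5.26, and only 5 members (Vmn2r29, Vmn2r33, Vmn2r55, Vmn2r58 and Vmn2r96) exceeded it in 3 or more samples. The number of arrays limits the precision, and levels of different probe sets are not compared.

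Trim28 itself lay between 9.21 and 9.99 in all 18 WT samples. It was lower in every KO sample, ranging from 7.20 to 7.86 in naive cells and from 5.51 to 6.58 after stimulation. The 6 measured CD4 T cell markers had sample means of 10.59 to 11.24 in WT and 10.59 to 11.38 in KO. Of these markers 4 were higher in KO on the mean of the 6 conditions at an adjusted p under 0.05 in limma, by log2 changes of 0.11 (Cd4) to 0.20 (Cd3e), and 0 lower, or 66.7% higher against 11.2% of all genes; their part in the changes of the members was not tested. Some libraries stood apart. KO Th0 sample 1 and KO Th1 sample 1 had Mki67, a proliferation gene, at 8.61 and 9.0, while the other KO samples of those conditions had it between 10.64 and 10.94. Mki67 was also lower in every KO than in every WT sample of Th0, Th1, Th2 and Th17 cells. In naive and Treg cells the genotypes overlapped. The part of this difference in the changes of the members was not tested. Xist was between 10.81 and 11.12 in WT naive sample 1 and in KO naive samples 1 and 2, and at most 4.12 in the other 33 samples. Bulk RNA cannot tell a change in the number of cells of a kind from a change in RNA per cell.

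The sequence around the annotated start is shown for Vmn2r96 and for 4 members near it on chromosome 17, because 2 of these, Vmn2r92 and Vmn2r97, were also higher in KO. Each window runs from 250 bases before to 50 bases after a RefSeq start (GRCm38.p6, plus strand): chr17:18151680-18151979 for Vmn2r92, chr17:18423854-18424153 for Vmn2r95, chr17:18581477-18581776 for Vmn2r96, chr17:18914072-18914371 for Vmn2r97 and chr17:19053243-19053542 for Vmn2r98. Capitals mark an 18-base stretch, the longest that the 4 members other than Vmn2r96 share.
Vmn2r92: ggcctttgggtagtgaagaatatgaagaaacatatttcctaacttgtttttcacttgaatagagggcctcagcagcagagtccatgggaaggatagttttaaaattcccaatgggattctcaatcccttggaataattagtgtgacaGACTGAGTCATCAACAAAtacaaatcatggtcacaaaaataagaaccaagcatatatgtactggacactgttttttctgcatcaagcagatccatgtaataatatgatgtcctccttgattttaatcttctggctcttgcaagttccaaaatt
Vmn2r95: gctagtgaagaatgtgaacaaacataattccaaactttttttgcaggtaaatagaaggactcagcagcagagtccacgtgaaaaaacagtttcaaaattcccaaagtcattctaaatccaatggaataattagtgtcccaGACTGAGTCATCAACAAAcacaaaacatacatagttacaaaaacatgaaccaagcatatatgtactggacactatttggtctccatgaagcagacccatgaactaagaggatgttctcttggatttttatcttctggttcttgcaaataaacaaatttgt
Vmn2r96: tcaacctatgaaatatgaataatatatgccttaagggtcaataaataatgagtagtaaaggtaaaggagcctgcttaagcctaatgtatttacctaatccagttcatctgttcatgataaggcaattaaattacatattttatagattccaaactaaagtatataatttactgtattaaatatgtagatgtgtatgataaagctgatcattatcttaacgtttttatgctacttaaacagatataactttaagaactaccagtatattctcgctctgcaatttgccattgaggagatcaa
Vmn2r97: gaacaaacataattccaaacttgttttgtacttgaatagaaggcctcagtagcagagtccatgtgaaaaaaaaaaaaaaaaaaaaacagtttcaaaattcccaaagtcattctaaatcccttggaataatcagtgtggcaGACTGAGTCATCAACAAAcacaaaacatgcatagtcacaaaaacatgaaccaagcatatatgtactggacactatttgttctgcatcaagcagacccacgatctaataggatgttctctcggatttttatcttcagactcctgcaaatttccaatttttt
Vmn2r98: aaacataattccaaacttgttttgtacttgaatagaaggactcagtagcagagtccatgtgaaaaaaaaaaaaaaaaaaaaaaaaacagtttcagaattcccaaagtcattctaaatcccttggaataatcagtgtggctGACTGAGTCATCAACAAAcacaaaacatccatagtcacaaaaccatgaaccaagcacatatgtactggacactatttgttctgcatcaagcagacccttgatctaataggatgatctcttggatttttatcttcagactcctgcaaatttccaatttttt

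The windows of Vmn2r92, Vmn2r95, Vmn2r97 and Vmn2r98 were 75.3 to 95.3% identical to each other in global alignments. The window of Vmn2r94, another near member, was 57.7 to 62.3% identical to those of the near members other than Vmn2r96. Vmn2r96's window was 53.7 to 57.3% identical to those of the 10 nearest members and at most 60.0% identical to any of 103 other members. The identity that such alignments give to unrelated windows was not computed, so these values do not show a shared origin. The RefSeq start in the window of Vmn2r96 lies 8472 bases inside the annotated gene, and the starts of 10 members in all lie inside theirs. The window of Vmn2r96 therefore does not cover the same position relative to the gene as those of the other members shown. The shared stretch, GACTGAGTCATCAACAAA, occurred on either strand in the windows of 6 members (Vmn2r91, Vmn2r92, Vmn2r95, Vmn2r97, Vmn2r98 and Vmn2r99). These were 5.77% of the 104 members with a window, and with Vmn2r124 they made up 0.0213% of all 32851 windows in the RefSeq table. It contains TGAGTCA, the core motif of AP-1 factors, which 21.2% of the member windows held against 5.2% of all windows. The TATA box letters TATAAA were in 25% of the member windows against 13.6% of all. All were searched on both strands, and the matches are descriptions of letters, not sites. The stretch was found in windows picked partly for the changes in KO of Vmn2r92 and Vmn2r97, so it is not set against the changes of the members. The windows of Vmn2r91 and Vmn2r92 were 98.0% identical.

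Vmn2r96 was higher in every KO sample than in any WT sample. In naive cells the 3 WT samples had 4.45, 3.75 and 4.26 and the KO samples 7.69, 7.68 and 5.86. In Th0 cells WT had 3.48, 3.84 and 3.48 and KO 7.60, 6.66 and 7.37. In Th1 cells WT had 3.89, 3.12 and 3.70 and KO 7.74, 7.09 and 6.59. These 3 pairs of groups were separated by more than a log2 unit each, with the smallest gap in naive cells, where KO sample 3 lay below the other KO samples. In Th2 cells WT had 3.0, 3.63 and 3.55 and KO 6.94, 6.76 and 7.20. In Th17 cells WT had 3.61, 3.63 and 3.74 and KO 5.59, 6.66 and 6.87. In Treg cells WT had 3.92, 3.88 and 3.84 and KO 7.73, 6.92 and 6.95. Again no groups overlapped, and the lowest of all KO samples was Th17 sample 1.

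**Figure D1:**
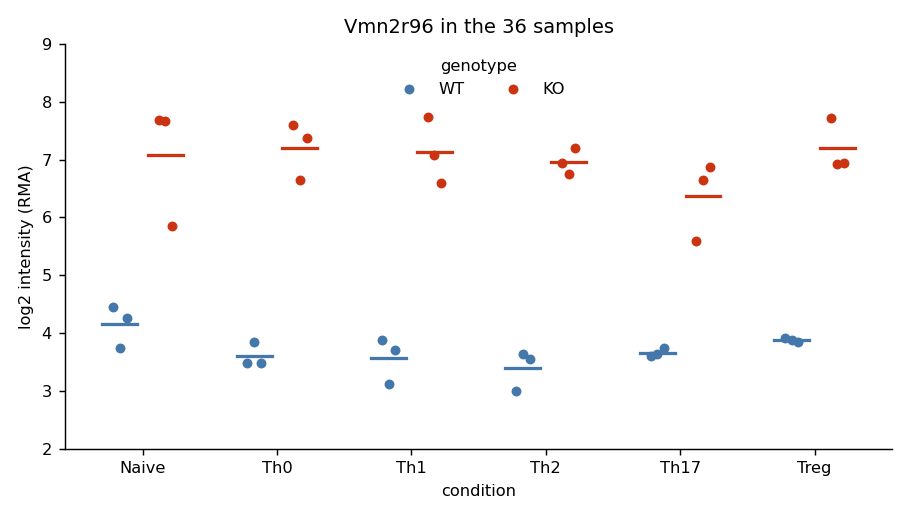
Log2 intensity (RMA, vertical axis) of Vmn2r96 in WT (blue) and KO (red) samples of the 6 conditions; points are samples, 3 per group, and bars are group means. The lowest KO sample, at 5.59 in Th17, lies above the highest WT sample, at 4.45 in naive cells.

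The difference between KO and WT was 2.92 on the log2 scale in naive cells, or 7.57-fold, with an SE of 0.37 that was the same in all conditions. Th0, Th1 and Th2 cells had the largest differences, of 3.61, 3.57 and 3.57 (12.2, 11.9 and 11.9-fold). Treg cells had 3.32 (9.97-fold) and Th17 cells the smallest, 2.71 (6.55-fold). Averaged over the 6 conditions it was 3.28 (SE 0.15, 95% interval 2.98 to 3.59), or 9.73-fold. Because the gene was named with this pattern known, these are descriptions and no p-value is given. Among the 22180 genes the change ranked between 3 and 11 from the top in the single conditions and 3 in the mean. In naive cells the high Xist samples were not spread evenly over the genotypes, and the change was 2.54 with a term for high or low Xist. Without the 2 samples low in Mki67 it was 3.41 in Th0 and 3.27 in Th1 cells.

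The KO levels of Vmn2r96 lay close together across the conditions. The KO means were 7.21 in Th0, 7.20 in Treg, 7.14 in Th1, 7.08 in naive, 6.97 in Th2 and 6.37 in Th17 cells, with SDs of 0.22 (Th2) to 1.05 (naive) over 3 samples. No neighbours in this order differed by more than the larger of their SDs. The WT means ran from 3.39 in Th2 to 4.16 in naive cells. The size of the KO effect was compared between conditions with the interaction of genotype and condition. Against Th0, the effect in Th17 cells differed by -0.90 (SE 0.52, 95% interval -1.96 to 0.17, adjusted p = 0.35). The Th0 effect differed from that in naive cells by 0.69 (SE 0.52, 95% interval -0.38 to 1.75, adjusted p = 0.53). The differences in Th1, Th2 and Treg cells against Th0 were -0.04, -0.03 and -0.29. None of the 5 passed the threshold. Their intervals ran about a log2 unit to either side of each estimate and leave room for differences of more than 2-fold. The widest reach was to -1.96 on the log2 scale, for Th17 cells.

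No other member came near this change. On the mean of the 6 conditions, the effect on Vmn2r96 exceeded that on each of the 108 other members by 2.76 to 3.46 log2 units. The lowest bound of any of the 95% intervals of these differences was 2.41, for Vmn2r33. In single conditions, the second highest member reached 0.70 in naive (Vmn2r33), 0.62 in Th0 (Vmn2r33), 1.30 in Th1 (Vmn2r33), 0.25 in Th2 (Vmn2r125), 0.37 in Th17 (Vmn2r70) and 0.55 in Treg cells (Vmn2r35). Only Vmn2r33 in Th1 cells passed a 2-fold change among these. The intervals of single conditions are wider, and their upper bounds exceeded 1 for 3 members in Th1, 2 in Treg, 1 in naive, 1 in Th0 and 0 in Th2 and Th17 cells.

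**Figure D2:**
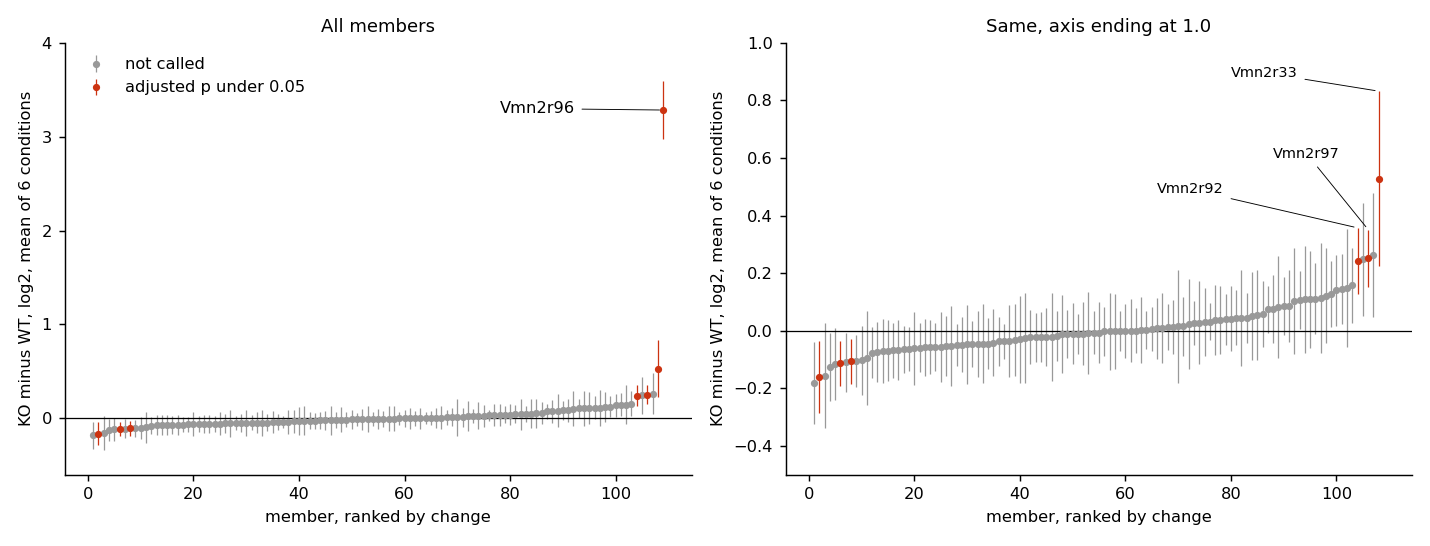
KO minus WT on the log2 scale, mean of the 6 conditions, for the 109 members ranked by change; points are estimates, bars 95% intervals, red marks an adjusted p under 0.05. The left panel shows all members with Vmn2r96 at 3.28, and the right panel shows the same values on an axis ending at 1.0, where Vmn2r33, Vmn2r97 and Vmn2r92 lead.

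Vmn2r96 was nevertheless not the only member called higher on the mean of the 6 conditions. At an adjusted p under 0.05 (limma, Benjamini-Hochberg over all 22180 genes), 4 members were higher (3.67%, against 11.2% of all genes) and 3 lower (2.75%, against 16.4% of all genes). Both shares lay below those of all genes, a difference that was not tested. The median change of the members was -0.0061 and that of all genes -0.0035. The called members besides Vmn2r96 were Vmn2r33 (0.53, SE 0.15, adjusted p = 0.0071), Vmn2r97 (0.25, SE 0.05, adjusted p = 0.00018) and Vmn2r92 (0.24, SE 0.06, adjusted p = 0.0012), and the lower ones Vmn2r63 (-0.16), Vmn2r13 (-0.11) and Vmn2r116 (-0.11). Vmn2r63 and Vmn2r116 lost their calls in limma with a random replicate block (adjusted p = 0.075 and 0.065). With each sample centered on its median the same comparison called 4 higher and 10 lower. The members next in size that did not pass were Vmn2r35 (0.26), Vmn2r45 (0.25) and Vmn2r84 (0.16) upward and Vmn2r51 (-0.18), Vmn2r24 (-0.16) and Vmn2r59 (-0.13) downward. Vmn2r33, Vmn2r97, Vmn2r92 and Vmn2r13 remained called when any one of the 36 samples was left out.

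Vmn2r97 and Vmn2r92 lie close to Vmn2r96. Vmn2r97, the gene with a value that follows it, had 2.72, 2.75 and 2.57 in WT Th0 and 3.33, 2.96 and 3.21 in KO Th0 cells, without overlap, a change of 0.49 (SE 0.12, adjusted p = 0.0030). In Th17 cells WT had 2.61, 2.75 and 2.57 and KO 2.93, 2.92 and 2.97, also without overlap, but the change was not called there. The share of all genes without overlap in Th17 cells was not computed, so this separation is only a description. In naive cells the KO samples had 3.09, 2.89 and 3.31 against 2.85, 2.88 and 2.90 in WT and overlapped by 1 sample. In the other conditions the ranges overlapped as well.

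Vmn2r92 lies 4 genes before Vmn2r96. In Th0 cells it had 4.02, 3.98 and 3.72 in WT and 4.26, 4.40 and 4.47 in KO, without overlap, a change of 0.47 (SE 0.14, adjusted p = 0.013). In Treg cells WT had 3.90, 4.15 and 3.78 and KO 4.33, 4.28 and 4.63, without overlap, a change that was not called in that condition. For Treg cells, too, the share of all genes without overlap was not computed. KO naive sample 3, the lowest naive KO sample for Vmn2r96 at 5.86, was the highest of all 36 samples for Vmn2r92 at 4.75, so that the order of the naive samples differed between the genes. The Th0 call for Vmn2r92 was lost without KO Th0 sample 3 or WT Th0 sample 3.

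Vmn2r33, on chromosome 7, varied more between samples of a group. It had 4.05, 4.88 and 4.84 in WT Th1 and 5.97, 5.89 and 5.82 in KO Th1 cells, without overlap, a change of 1.30 (SE 0.36, adjusted p = 0.0080). The WT Th1 sample 1 is the lowest of all, and without it the change was 1.03 and the call was lost. In naive cells WT had 4.52, 4.62 and 5.82 and KO 5.81, 5.14 and 6.11, and in Th2 cells WT had 4.77, 5.12 and 6.09 and KO 4.90, 5.17 and 5.78. The groups overlapped in both. The Th2 mean was 5.28 in KO and 5.33 in WT, and the Th17 mean 4.83 in KO and 4.78 in WT.

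**Figure D3:**
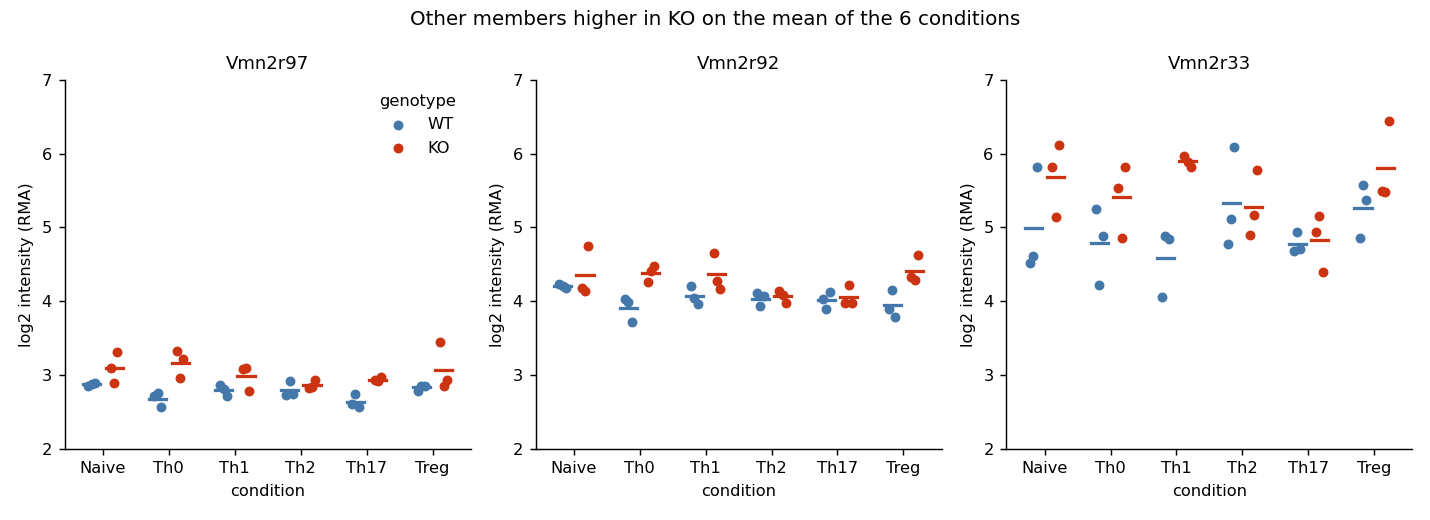
Log2 intensity (RMA, vertical axes, same range) of Vmn2r97, Vmn2r92 and Vmn2r33 in WT (blue) and KO (red) samples of the 6 conditions; points are samples, 3 per group, and bars are group means. The groups lie apart in Th0 cells for Vmn2r97 and Vmn2r92, in Th17 cells for Vmn2r97, in Treg cells for Vmn2r92 and in Th1 cells for Vmn2r33, and overlap in the other conditions.

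Many Vmn2r genes are close copies of each other. The files give 1 value per probe set, so probes shared between near-identical members could not be separated, and the part of cross-hybridisation in the small changes was not tested. Vmn2r113 and Vmn2r122 had several probe sets each, none of them called. A further 18 probe sets annotated to several symbols including a Vmn2r gene, and 4 annotated to Vmn2r pseudogenes, fell outside the rule. None of these 22 was called in any comparison of KO with WT when all 41345 probe sets were fitted, and their mean changes ran from -0.07 to 0.24.

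In the single conditions few members other than Vmn2r96 were called. In naive cells Vmn2r96 was the only one, 1 of 109 (0.917%), where 0.546% of all genes were higher and 0.108% lower. In Th17 cells (2.34% of all genes higher, 2.29% lower) and in Treg cells (0.987% higher, 1.31% lower) it was again the only one. In Th2 cells (4.15% of all genes higher, 4.81% lower) Vmn2r112 was lower, with 2.57, 2.84 and 2.81 in WT and 2.43, 2.44 and 2.42 in KO (-0.31, SE 0.09, adjusted p = 0.020). This difference of Vmn2r112 did not overlap between the groups but lost its call without any one of 5 of the 6 samples.

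In Th0 cells 3 members were higher (2.75%, against 9.22% of all genes) and 2 lower (1.83%, against 11% of all genes). Besides Vmn2r97 and Vmn2r92, described above, these were Vmn2r106 (3.05, 3.13 and 3.47 in WT, 2.77, 3.02 and 2.95 in KO, change -0.30, adjusted p = 0.023) and Vmn2r69 (3.64, 3.97 and 3.61 in WT, 3.50, 3.11 and 3.41 in KO, change -0.40, adjusted p = 0.037). Both differences were small and without overlap. Vmn2r106 was no longer called without KO Th0 sample 1 or WT Th0 sample 3, and Vmn2r69 without KO Th0 samples 2 or 3 or WT Th0 sample 2. With each sample centered on its median, 3 members were higher and 8 lower.

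In Th1 cells 5 members were higher (4.59%, against 9.67% of all genes) and 1 lower (0.917%, against 14.1% of all genes). After Vmn2r33 these were Vmn2r45, also on chromosome 7 (3.73, 4.0 and 3.99 in WT, 4.52, 4.67 and 4.62 in KO, change 0.70, adjusted p = 0.027), Vmn2r9 (change 0.54, adjusted p = 0.044) and Vmn2r84 (change 0.48, adjusted p = 0.024). Vmn2r10 was lower (3.54, 3.32 and 3.16 in WT, 3.07, 2.84 and 2.88 in KO, change -0.41, adjusted p = 0.028). The groups did not overlap for any of them. Leaving out samples ended each of these calls but not that of Vmn2r96: Vmn2r9 lost it without any one of the 6 samples, Vmn2r84 without 5, and Vmn2r45 and Vmn2r10 without 4. Without the 2 samples low in Mki67, 2 members were higher and 1 lower in Th1 cells, and with median centering 3 were higher and 5 lower.

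**Figure D4:**
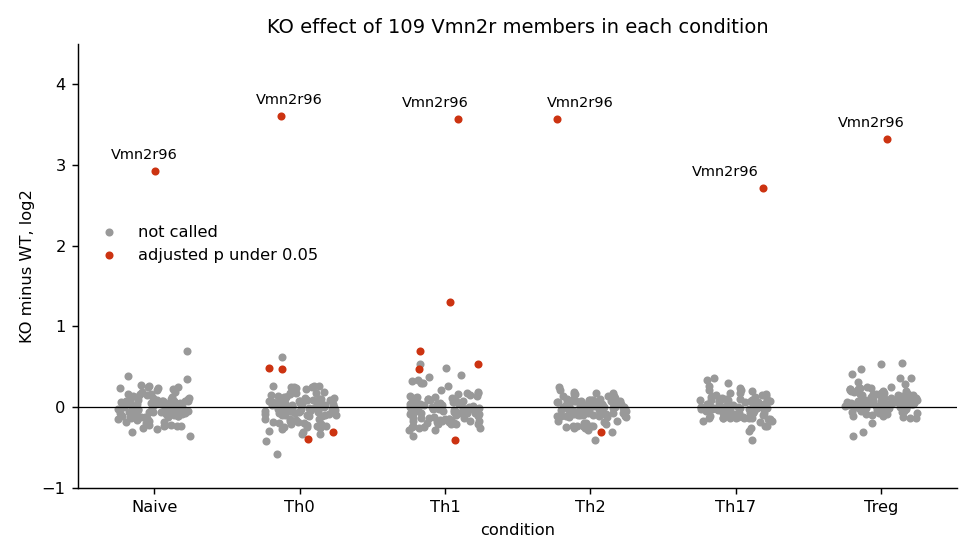
KO minus WT on the log2 scale (vertical axis) for the 109 members in each of the 6 conditions; grey points were not called, red points have an adjusted p under 0.05, and horizontal scatter within a condition only separates points. Vmn2r96 lies between 2.71 and 3.61 in every condition, and the next member is Vmn2r33 at 1.30 in Th1 cells.

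Counted over the 6 conditions, 11 of 109 members were called in at least 1 of them (against 34.5% of all genes), and Vmn2r96 was the only one called in more than 1 (0.917%, against 18.9% of all genes). In the 6 conditions and the mean together, 95 of the 109 members were never called (87.2%, against 61.8% of all genes). The sign of the change was positive in all 6 conditions for 8 members (Vmn2r6, Vmn2r20, Vmn2r25, Vmn2r35, Vmn2r92, Vmn2r96, Vmn2r97 and Vmn2r113) and negative in all 6 for 3. These were 7.34% and 2.75% of the members, against 4.03% and 6.25% of all genes. In Treg cells the members leaned upward, 80 of 109 having a positive change, with a median of 0.06 against -0.0018 over all genes. The median was as high for the Vmn1r genes, which encode the other vomeronasal receptor family (0.08 over 176 genes), and for the odorant receptors (0.06 over 1105 genes), and was 0.10 over 15 trace amine receptors and -0.04 over 4 formyl peptide receptors.

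All 109 members were found in the RefSeq gene table of GRCm38.p6, on 8 chromosomes. Chromosome 17 held 30 members, 3 of them called higher (Vmn2r92, Vmn2r96 and Vmn2r97) and 1 lower (Vmn2r116) on the mean of the 6 conditions. On that mean 11.2% of all genes were higher and 16.4% lower. Apart from Vmn2r96, the 29 members of chromosome 17 changed by between -0.11 and 0.25, with a median of -0.01. Chromosome 7 held 40 members, which changed by between -0.18 and 0.53, with 1 called in each direction (Vmn2r33 and Vmn2r63). The 39 members on the other 6 chromosomes held 1 call, Vmn2r13 on chromosome 5, lower.

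The change was larger at Vmn2r96 than at any of the 50 genes around it. All 10 genes with a value nearest to it, 5 on either side, are Vmn2r members: in order Vmn2r91 (0.11), Vmn2r92 (0.24), Vmn2r94 (0.01), Vmn2r93 (-0.002) and Vmn2r95 (0.04) before it, and Vmn2r97 (0.25), Vmn2r98 (0.03), Vmn2r99 (0.05), Vmn2r100 (-0.01) and Vmn2r101 (0.01) after it. Of the 50 genes up to 25 places away, 6 were called higher and 0 lower, where 11.2% and 16.4% of all genes were. Apart from Vmn2r92 and Vmn2r97, those 6 were Lix1 (0.62), Gm38396 (0.33), Zfp960 (0.30) and Fam120b (0.21), all between 13 and 25 places before Vmn2r96. The 8 genes with a value between Lix1 and Vmn2r92 were not called.

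**Figure D5:**
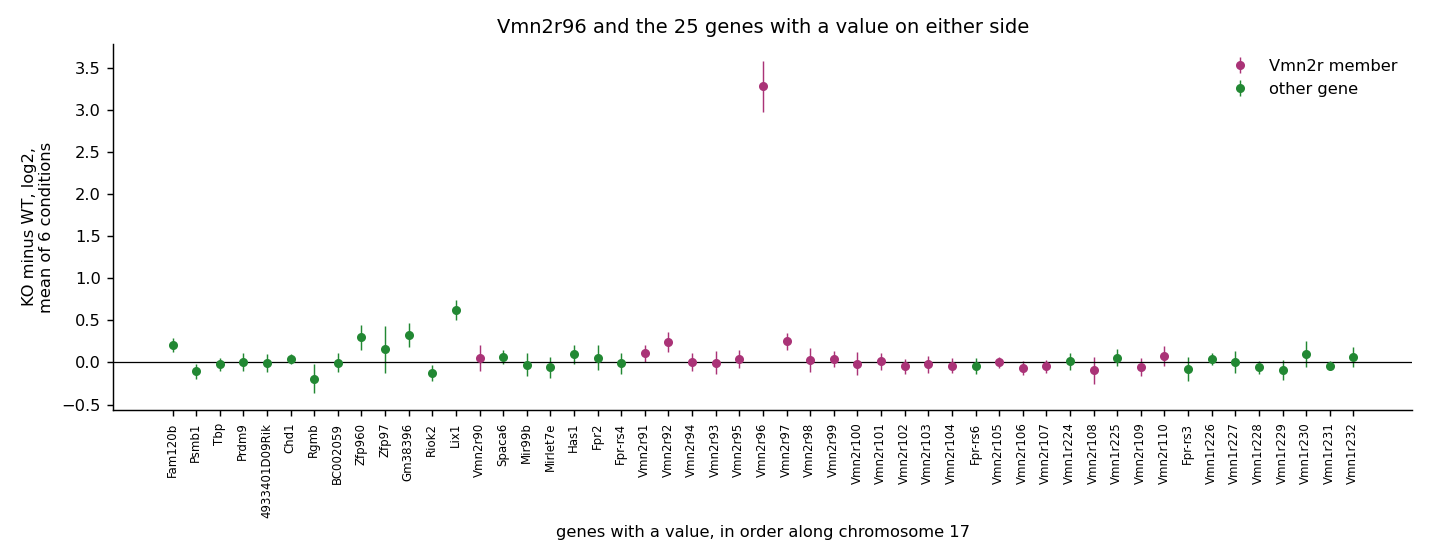
KO minus WT on the log2 scale, mean of the 6 conditions (vertical axis), for Vmn2r96 and the 25 genes with a value on either side in their order along the chromosome (horizontal axis, not to distance); purple marks Vmn2r members, green other genes, and bars are 95% intervals. Vmn2r96 at 3.28 stands above its neighbours, the highest of which is Lix1 at 0.62.

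Few members were called between culture conditions in WT cells, and Vmn2r96 was not called in any of these comparisons. A missing call does not show an unchanged level, and the WT mean of Vmn2r96 was highest in naive cells, as given above. Stimulation for 72 h (WT Th0 against WT naive) raised 3 members (2.75%, against 18.2% of all genes) and lowered 5 (4.59%, against 14.6% of all genes). Vmn2r58 fell most, from 7.84, 7.61 and 7.87 in naive to 7.02, 6.94 and 6.87 in Th0 cells (-0.83, SE 0.15, adjusted p = 4.5e-05). It lay above the table median in all 36 samples, and its KO and WT means differed by at most 0.21 in any condition. The other members that fell were Vmn2r94 (-0.43), Vmn2r84 (-0.40), Vmn2r83 (-0.37) and Vmn2r61 (-0.35). Vmn2r5 (0.55, from 2.94, 2.95 and 2.80 to 3.53, 3.62 and 3.20), Vmn2r69 (0.44) and Vmn2r27 (0.35) rose. This split depended on the scaling: median centering moved the median change of all genes from -0.02 to 0.10 and called 13 members higher and 1 lower. All 8 kept their direction there, and Vmn2r94, Vmn2r84, Vmn2r83 and Vmn2r61 lost their call. Vmn2r58 (-0.91 to -0.78) and Vmn2r5 (0.47 to 0.68) were the members called whichever of the 6 samples was left out.

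Polarized WT cells were each compared with the same WT Th0 samples. No member was called in Th1 cells, where 3.11% of all genes were higher and 2.66% lower, and 2 members had an unadjusted p under 0.05 in limma (1.83%, against 14.9% of all genes). In Th2 cells (10% of all genes higher, 12.6% lower) Vmn2r108 was lower, with 3.01, 2.94 and 3.11 against 3.49, 3.73 and 3.71 in Th0 (-0.62, adjusted p = 0.019). In Th17 cells 2 members were called (1.83%, against 23% of all genes called in either direction), Vmn2r80 (-0.36, adjusted p = 0.011) and Vmn2r73 (-0.27, adjusted p = 0.033), both lower. In Treg cells 1 member was higher (0.917%, against 11.3% of all genes), Vmn2r82 (0.33, adjusted p = 0.020), and 4 lower (3.67%, against 12.7% of all genes): Vmn2r63 (-0.50), Vmn2r106 (-0.41), Vmn2r59 (-0.40) and Vmn2r53 (-0.34). With median centering the Treg split was 0 higher and 7 lower. Of the 8 calls in polarized WT cells, only that of Vmn2r106 (-0.49 to -0.28) held whichever sample was left out. Vmn2r108 lost its call without WT Th0 sample 2 or 3 or WT Th2 sample 2, and Vmn2r80 without WT Th0 sample 1.

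Whether the KO effect itself differed between conditions was tested for every member. Against Th0, 1 member was called in Treg cells, where 7.16% of all genes had a higher and 7.3% a lower effect. This was Vmn2r69, whose effect was -0.40 in Th0 and 0.21 in Treg cells (difference 0.61, SE 0.19, adjusted p = 0.031). No member was called in Th1 against Th0 (0.0676% of all genes higher, 0.266% lower), Th2 against Th0 (2.46% and 2.52%), Th17 against Th0 (3.86% and 4.13%) or Th0 against naive (3.99% and 5.32%). The members with an unadjusted p under 0.05 in limma numbered 4, 5, 7 and 9 in these comparisons, or 3.67%, 4.59%, 6.42% and 8.26%, against 6.05%, 17.2%, 20.8% and 20.5% of all genes.

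The other chemosensory receptor families also had few called genes on the mean of the 6 conditions, in which 11.2% of all genes were higher and 16.4% lower. Of 176 Vmn1r genes, 1 was higher (0.568%; Vmn1r196, 0.13) and 1 lower (0.568%; Vmn1r178, -0.14). Of 1105 odorant receptor genes, 24 were higher (2.17%) and 8 lower (0.724%), led by Olfr1046 (0.42, adjusted p = 0.00020), Olfr60 (0.33), Olfr530 (0.31) and Olfr331 (0.30). Of 15 trace amine receptors and 4 formyl peptide receptors none was called. No called gene of these families reached a change as large as that of Vmn2r33. Of 20 class C relatives, Gabbr1 (a GABA B receptor subunit, 0.40) and Grm6 (a metabotropic glutamate receptor, 0.26) were higher and Gpr179 (-0.15) was lower, or 10% higher and 5% lower.

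Genes for vomeronasal signal transduction did not move in one direction. Of 16 measured, 2 were higher, Plcb2 (a phospholipase C, 0.32) and Itpr3 (an inositol trisphosphate receptor, 0.10), and 4 lower, Calr (a chaperone, -0.16), Ano1 (a chloride channel, -0.14), Gnb1 (a G protein beta subunit, -0.14) and Trpc2 (-0.13). These shares, 12.5% higher and 25% lower, stand beside 11.2% and 16.4% of all genes. Gnao1 changed by -0.02 (adjusted p = 0.81). Of 10 genes for H2-Mv molecules and B2m, which accompany V2Rs on vomeronasal neurons, only H2-M11 was called (-0.15). Of 17 measured markers of olfactory and vomeronasal neurons, 2 were higher (11.8%; Meis2, 0.23, and Tfap2e, 0.13) and 3 lower (17.6%; Ncam1, -0.27, Lhx2, -0.25, and Trpc2 again). The mean over these 17 was 4.64 to 5.10 in WT samples and 4.65 to 5.12 in KO samples, while Omp, the marker of mature neurons of this kind, changed by 0.15 (adjusted p = 0.16). The part of such cells in the level of Vmn2r96 was not tested.

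Markers of other cells were also measured. None of 6 germ cell markers was called, with sample means of 3.80 to 4.26 in WT and 3.93 to 4.25 in KO. Of 4 B cell, 5 myeloid and 5 CD8 and NK cell markers, 1 each was higher: Cd79a (0.15), Itgam (0.41) and Klrb1c (0.25). These were 25%, 20% and 20% of the lists, against 11.2% of all genes, and 0 were lower. The myeloid means were 5.02 to 5.97 in WT and 4.95 to 6.57 in KO, and the CD8 and NK means 4.97 to 6.09 in WT and 4.78 to 6.10 in KO. Their part in the changes of the members was not tested. Among 16 genes of the TRIM28 machinery, 4 were higher, led by Setdb1 (1.24), Trim24 (1.04) and Morc3 (0.54), and 5 lower, led after Trim28 by Uhrf1 (-1.05), Cbx5 (-0.58) and Dnmt1 (-0.51). These were 25% and 31.2% of the list, against 11.2% and 16.4% of all genes.

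Over the 36 samples, after the mean of each condition was removed, the genes most like Vmn2r96 by Pearson's r were Pgpep1l (0.96), Mbd1 (0.96), Gm19951 (0.93), Fchsd2 (0.93) and Dnah8 (0.92), and the most opposite was Trim28 (-0.96). These values describe mainly the step between the genotypes, which all of these genes share. Within the 18 KO samples the same 5 genes had r between 0.08 (Pgpep1l) and 0.47 (Dnah8). Within the 18 WT samples they had r between -0.06 (Fchsd2) and 0.56 (Dnah8). Among the members, Vmn2r97 (0.69), Vmn2r92 (0.55) and Vmn2r33 (0.48) were the most like it. Within the KO samples these members had r of 0.21, -0.32 and -0.17, and within the WT samples 0.24, 0.08 and -0.06.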

How the data were processed

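RNA of 36 samples was hybridised to Affymetrix arrays, and the authors deposited log2 values for 41345 probe sets, made with RMA in the R package oligo (R 3.1.0), per the submitters' processing notes. Array type details, background settings and batch are not given in the sources used here. RMA puts all samples on a shared distribution, so changes are relative to the other genes of an array. Genes were named through the platform annotation: 23521 probe sets had 1 symbol, 1814 several and 16010 none.

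limma 3.58.1 (R 4.3.3) fitted a mean for each of 12 groups to all genes with no filter. Benjamini-Hochberg adjustment ran over 22180 genes within each of 17 comparisons, called at 0.05; the fit was tested on simulated data. The difference between Vmn2r96 and another member was fitted to the per-sample difference. Windows come from the RefSeq tables (Biopython 1.88 for alignments). Members, lists and tests were chosen with earlier results of these data known. Named members are Vmn2r96, called members (up to 5 per direction, 10 in the mean), the 3 next in each direction in the mean, the 5 genes on either side, the genes most like Vmn2r96 and up to 4 called genes per list. Samples of a group correlated at 0.980 to 0.992 with no identical pair. Same-numbered WT and KO samples did not all deviate together in any condition. Same-numbered Th0 and Th1 samples of 1 genotype did (correlations 0.14 to 0.21 in WT, 0.37 to 0.45 in KO), so these samples may be paired. The labels do not say so, and single WT and KO samples of 1 number reached 0.53 (naive, number 3) and 0.38 (Th2, number 1). The main fit treats all samples as independent. An alternative fit has a random block of genotype and number. That block joins all conditions of 1 genotype and number, not only Th0 and Th1, so it does not model this pairing alone. Alternatives were other scalings, a filter, probe set rules, priors, weights, replicate blocks, an Xist term and leaving out samples.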

Additional observations from a re-analysis of the deposited data

Results flagged for a closer look

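One difference between conditions passed its test. The KO effect on Vmn2r69 was higher in Treg than in Th0 cells by 0.61 on the log2 scale (SE 0.19, limma adjusted p = 0.031). The 3 Th0 samples had 3.64, 3.97 and 3.61 in WT and 3.50, 3.11 and 3.41 in KO, and the Treg samples 3.48, 3.48 and 3.48 in WT and 3.77, 3.50 and 3.80 in KO. All KO samples lay below WT in Th0 and above WT in Treg cells. The call was lost when any one of 6 of the 12 samples was left out, and the difference then ranged from 0.49 to 0.70 over the 12 omissions.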

How the results depend on the processing

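As a description, the change of Vmn2r96 on the mean of the 6 conditions ran from 3.20 to 3.38 over the alternatives, and its difference from the nearest member from 2.66 to 2.89 over the samples left out. Leaving out 1 sample moved its change between 2.61 and 3.53 in naive, 3.41 and 3.88 in Th0 and 2.46 and 3.1 in Th17 cells. Counts of called members were less stable. Array weights gave 9 in Th0, 2 in Th17, 2 in Treg cells and 12 in the mean, 1 (Th0 against naive), 2 (Th17), 1 (Th2) and 3 (Treg) for differences of the KO effect, and 17 (Th0 against naive), 2 (Th1), 8 (Th17), 8 (Th2) and 10 (Treg) in WT comparisons. Median centering gave 11 in Th0 cells and 14 in the mean, 2 and 2 for the differences of Th0 against naive and Treg, and 14 and 1 for WT Th0 against naive and WT Th17. The filter on low values, which left 5 members, gave 1 in Th0, 2 in Th1, 1 in Th2 cells and 2 in the mean, 0 for the Treg difference, 1 for WT Th0 against naive and 0 in WT Th17, Th2 and Treg cells. A fit to only the groups compared gave 2 in Th17 and 1 in Th2 cells. Without both samples low in Mki67 there were 3 in Th1, 2 in Treg cells and 1 for the Th17 difference. Cyclic loess gave 1 for WT Th17. The fixed replicate block gave 9 calls in the mean, and the random replicate block gave 5 there, 4 for WT Th17 and, as in the main analysis, 0 for WT Th1 and for the Th1 difference. Leaving out 1 sample gave 3 to 8 calls in Th0, 1 to 6 in Th1, 1 to 3 in Th2, 1 to 2 in Treg cells and 5 to 11 in the mean. For differences of the KO effect it gave 0 to 2 (Th0 against naive), 0 to 1 (Th17), 0 to 1 (Th2) and 0 to 4 (Treg). In WT it gave 5 to 11 (Th0 against naive), 0 to 1 (Th1), 1 to 3 (Th17), 0 to 5 (Th2) and 1 to 8 (Treg). The cause of these moves was not tested, except that the filter leaves few members, Vmn2r96 among them only through its KO samples. No direction reversed.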

Other observations

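The scatter of Vmn2r33 within groups was shared with other members. After group means were removed, its r over the 36 samples was highest with Vmn2r37 (0.77), Vmn2r45 (0.76), Vmn2r30 (0.74), Vmn2r122 (0.73) and Vmn2r32 (0.72), all on chromosome 7 but Vmn2r122, which is on chromosome 4. Over all 5886 pairs of members the median r was 0.11, and over the 108 pairs with Vmn2r96 it was -0.02. These partners were chosen after the values were seen, the samples share arrays and scaling, and the values are a description.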
